A study of Macaca mulatta with 10 samples.

Results

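FOXP3, IKZF2, IKZF4, IL2RA, TNFRSF18 and LRRC32 are genes by which classical regulatory T cells (Tregs) are recognized, and they were followed here in sorted type 1 regulatory T (Tr1) cells. The 6 genes were chosen by symbol among the 26484 rows of the deposited count table, and each symbol occurs once there. Tr1 cells are regulatory CD4+ T cells that act largely through IL-10 and that, unlike Tregs, are not defined by FOXP3. The question was how far the Treg genes were read in the Tr1 libraries, and whether they differed with the infusion of apoptotic donor leukocytes (ADLs).

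The cells came from diabetic rhesus macaques that had received islet allografts from donors matched at one DRB allele. Cohort B comprised 5 monkeys without ADL infusion (13EP12, 13EP8, 14HP26, 14HP31 and 15CP6) and Cohort C comprised 5 monkeys with ADL infusion (13EP5, 14HP33, 14HP24, 15CP1 and 15CP4). Both cohorts had been made diabetic with streptozotocin and had received the same transient immunosuppression, consisting of an antagonistic anti-CD40 antibody, rapamycin, a soluble TNF receptor and an anti-IL-6 receptor antibody. The age of the monkeys is not given in the labels. Each monkey gave 1 library. Blood mononuclear cells were frozen, thawed, rested overnight and sorted as CD4+CD49b+LAG-3+. None of the Treg genes followed here was part of this gate. Whether the gate selected or removed cells with a Treg phenotype was not tested. The labels date sampling to sacrifice, prompted by rejection without ADLs and scheduled with ADLs, so that by the labels the infusion and the occasion of sampling cannot be told apart. Monkeys 13EP12 and 13EP8 of Cohort B are, however, listed elsewhere without rejection, and 15CP1 of Cohort C is described as kept beyond the scheduled end. Libraries of sorted Tregs were not analysed here, and the values below therefore describe Tr1 libraries alone.

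FOXP3 is the transcription factor that fixes the Treg program. IKZF2 (Helios) and IKZF4 (Eos) are Ikaros family factors that accompany it, and Eos acts as a corepressor of FOXP3. IL2RA (CD25) is the alpha chain that gives the IL-2 receptor its high affinity, TNFRSF18 (GITR) is a costimulatory receptor of the TNF receptor family, and LRRC32 (GARP) holds latent TGF-beta on the surface of activated Tregs and of platelets. None of these genes is exclusive to Tregs, since conventional T cells can raise FOXP3, CD25 and GITR on activation.

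Depth set what could be seen. The Cohort B libraries held 6076 to 1392157 counts in total and the Cohort C libraries 66485 to 5895609. Only 4 libraries held at least 5000 genes with a count, namely 13EP12 and 13EP8 of Cohort B and 13EP5 and 15CP1 of Cohort C, and these are called here the better covered libraries. They carried 1751 of the 1928 counts of the 6 genes (90.8%). Of the 60 values (6 genes in 10 libraries), 23 held a count and 37 were 0, and 7 of the zeros fell in the better covered libraries. In library 14HP33, 82.6% of the counts belonged to a single gene, MTRNR2L1. A level of 3 counts, taken as the floor of a library, equals 494 CPM (counts scaled to a common total of 1000000) in 14HP31 and 0.509 CPM in 15CP1. Among 8 housekeeping genes, 7 were at 0 in 14HP31, 5 in 14HP26 and in 14HP33, 4 in 14HP24 and in 15CP4, 3 in 15CP6, 1 in 13EP12 and none in the other libraries. In bulk libraries, fewer cells with a transcript and less transcript per cell cannot be told apart. Intervals and floors cover counting error only.

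**Figure D1:**
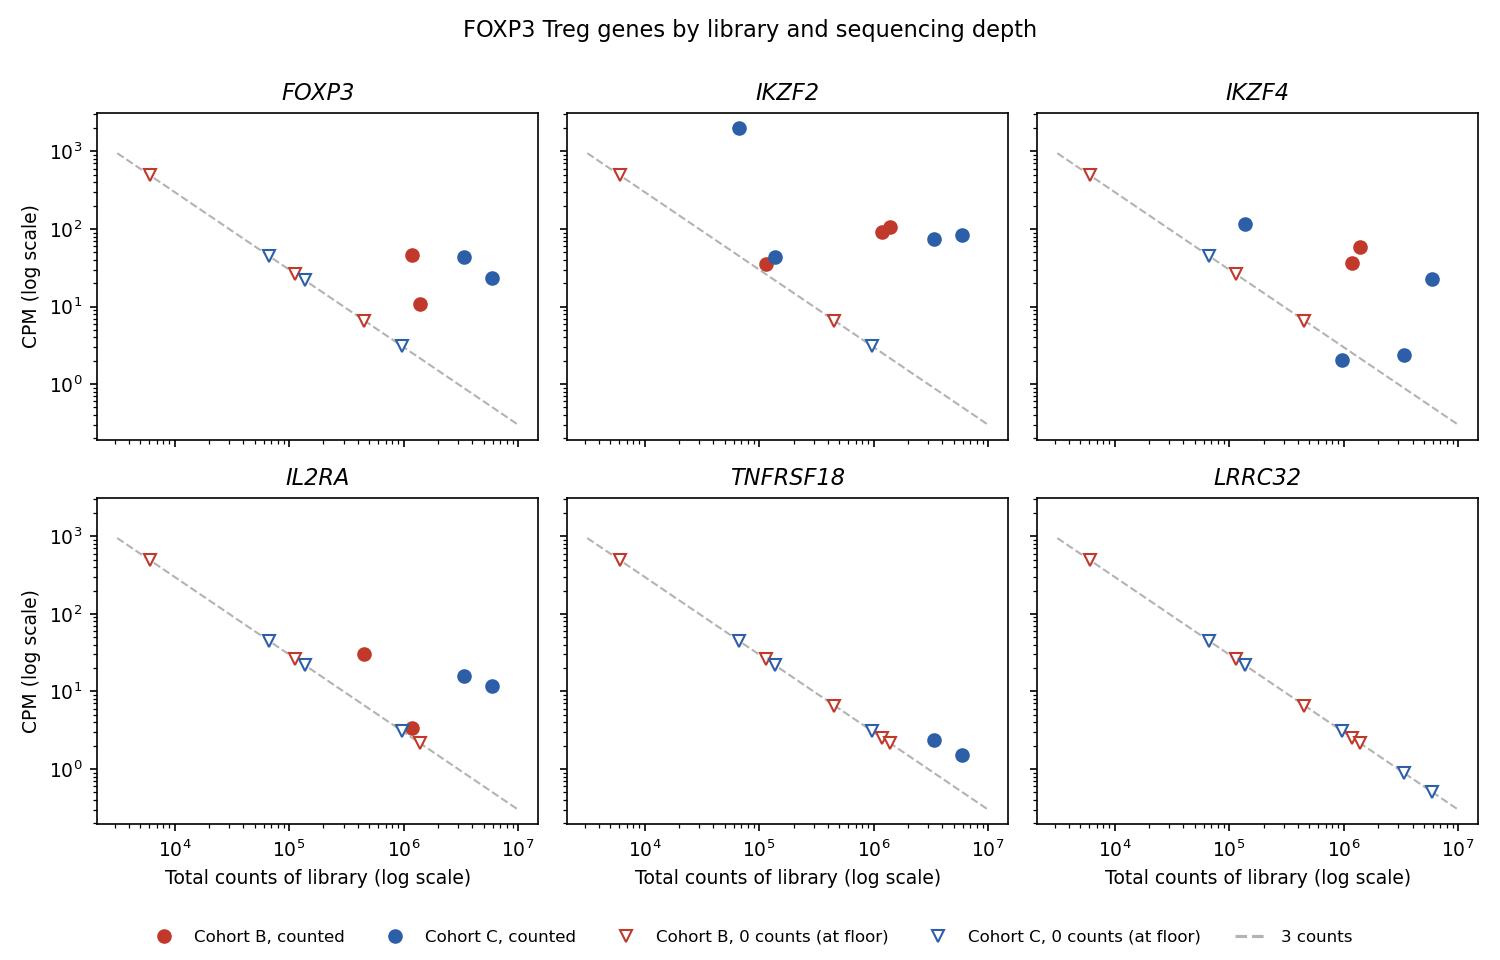
Level of each of the 6 Treg genes in CPM (log scale) against the total counts of the library (log scale), with filled circles for counted values, open triangles for 0 counts drawn at the floor of 3 counts, red for Cohort B and blue for Cohort C. FOXP3 was counted in 4 libraries and LRRC32 in 0, and the highest value is that of IKZF2 in 15CP4, one of the smallest libraries.

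FOXP3 was read in all 4 better covered libraries, 2 of each cohort, and in none of the other 6. In Cohort B it had 55 counts in 13EP12, 15 in 13EP8 and 0 in 14HP26, 14HP31 and 15CP6. In Cohort C it had 144 counts in 13EP5, 137 in 15CP1 and 0 in 14HP33, 14HP24 and 15CP4. The cohorts overlapped, with 2 libraries of each at a level above 0. Scaled to library size, the counted levels were 46.2 and 10.8 CPM in Cohort B and 43.1 and 23.2 CPM in Cohort C, so that 13EP12 and 13EP5, of different cohorts, were nearly level and 13EP8 was the lowest. The mean log2(CPM + 1) was 1.85 ± 2.63 in Cohort B and 2.08 ± 2.86 in Cohort C (SD, n = 5 monkeys per cohort). By edgeR's quasi-likelihood test the log2 fold change (Cohort C over Cohort B) of FOXP3 was 0.26 (SE 2.05, Benjamini-Hochberg adjusted p = 0.9998), against a median of 0.16 over all genes tested. That error corresponds to 4.15-fold, and with edgeR's RLE or DESeq2's own scaling the sign turned (-0.01 and -0.24). Single libraries moved it further, to 1.98 without 13EP12 and to -0.88 without 13EP5.

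The zeros of FOXP3 were not all equally telling. At the pooled level of the better covered libraries (30.7 CPM, with the MTRNR2L genes left out), 10.6 counts of FOXP3 were expected in 15CP6, where 0 were found. In 14HP33, 14HP24 and 14HP26 the expected numbers were 3.88, 3.21 and 2.49, and in 15CP4 and 14HP31 they were 1.16 and 0.16. FOXP3 at that level was therefore not detectable in 14HP31, and only in 15CP6 was the zero well below what that level would give. Library 15CP6 did hold T cell counts, with 173 of CD3E where 77.2 were expected. Of the 10 T cell genes, 4 were at 0 there, namely CD3G, CD2, CD5 and LCK. LCK had 222 to 1155 counts in the better covered libraries, so that a zero in 15CP6 was not particular to FOXP3. FOXP3 in 15CP6 amounted to at most 2.16 per 100 counts of CD3E (upper bound of the exact binomial interval). CD4, however, had 13 counts there where 59.6 were expected. Per 100 counts of CD4 the upper bound of FOXP3 in 15CP6 was 32.8, above the ratios of the better covered libraries given below. Relative to CD4 its zero was therefore not telling.

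Relative to CD4, FOXP3 was nearly the same in every better covered library. There were 16.3 counts of FOXP3 per 100 counts of CD4 in 13EP12 (95% exact binomial interval 12.0 to 21.7), 16.0 in 13EP8 (8.59 to 27.7), 18.7 in 13EP5 (15.5 to 22.3) and 17.9 in 15CP1 (14.8 to 21.5). The 4 ratios lay within 1.17-fold of each other, which is narrower than their counting intervals, whereas the CPM of FOXP3 ranged over 4.29-fold and that of CD4 over 4.20-fold. Among the 6133 genes other than CD4 with over 3 counts in each of these libraries, 6, FOXP3 included, had a range per CD4 count as narrow (0.0978%), and the median range was 5.56-fold. CD4 was taken as a denominator after the counts had been seen. With other denominators the ratio was less even, ranging from 6.76 to 19.2 per 100 counts of CD3E (2.84-fold) and from 0.814 to 2.89 per 100 summed counts of 10 T cell genes (3.54-fold). CD4 is also expressed by monocytes, whose 8 marker genes summed to 1505, 1555, 546 and 6589 counts in 13EP12, 13EP8, 13EP5 and 15CP1, and their part in the ratio was not tested.

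**Figure D2:**
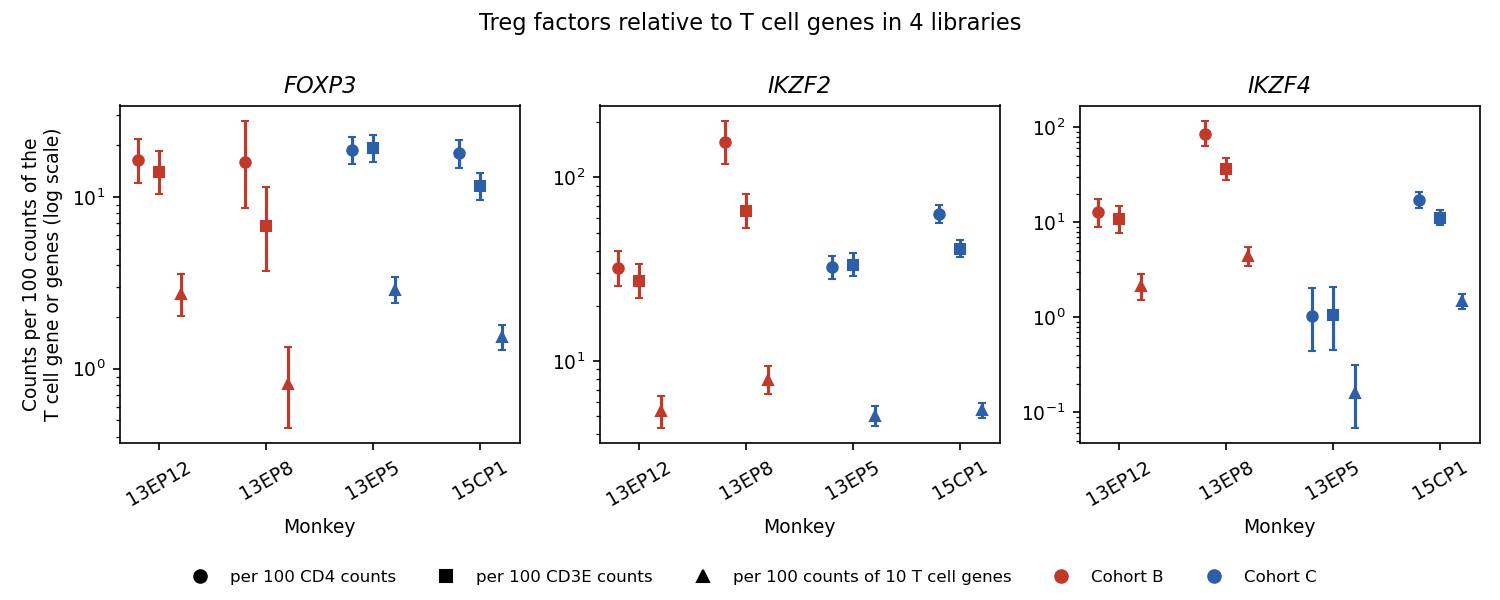
Counts of FOXP3, IKZF2 and IKZF4 per 100 counts of CD4 (circles), of CD3E (squares) and of 10 T cell genes summed (triangles) in the 4 better covered libraries, on log scales that differ between panels, with 95% exact binomial intervals, red for Cohort B and blue for Cohort C. FOXP3 per CD4 lay between 16.0 and 18.7 in all 4 libraries, while IKZF4 per CD4 ran from 1.04 to 86.2.

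IKZF2 was the most widely detected of the 6 genes, with 1136 counts in 7 libraries. In Cohort B it had 108 counts in 13EP12, 146 in 13EP8, 4 in 14HP26 and 0 in 14HP31 and 15CP6. In Cohort C it had 251 counts in 13EP5, 486 in 15CP1, 135 in 15CP4, 6 in 14HP24 and 0 in 14HP33. Both cohorts held zeros and counted values, and the cohorts overlapped. In the better covered libraries the levels were 90.7 and 105 CPM in Cohort B and 75.1 and 82.4 CPM in Cohort C, a 1.4-fold range, with both Cohort C libraries just below both of Cohort B. Of the 6133 genes with over 3 counts in all 4 of them, 278 had a CPM range as narrow (4.53%), and the median range was 3.15-fold. The even CPM did not carry over to every denominator, since IKZF2 per 100 counts of CD4 ran from 32.0 to 155.

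By edgeR, a single library carried most of the cohort difference in IKZF2. Its 135 counts in 15CP4 stood in a library of 66485 counts and 891 genes, equal to 2031 CPM, where 3.26 counts were expected at the pooled level of the better covered libraries. IKZF2 ranked 73 among the genes of that library. T cell markers were nearly missing there, with 11 summed counts over 10 genes, all of CD5, and with CD4, CD3E and FOXP3 at 0. In 15CP6, the opposite, 30 counts were expected and 0 found. In 14HP33, 10.9 counts were expected and 0 found, while 14HP24 and 14HP26 gave 6 and 4 counts where 9.05 and 7.04 were expected. With all libraries the mean log2(CPM + 1) was 3.60 ± 3.39 in Cohort B and 5.57 ± 3.54 in Cohort C (SD, n = 5), and edgeR's log2 fold change was 2.15 (SE 2.04, adjusted p = 0.796). Without 15CP4 that fold change was 0.19, in the same direction, and in the 4 better covered libraries it was -0.36. The difference in mean log2(CPM + 1) changed less, from 1.97 with all libraries to 0.93 without 15CP4, and it was 3.36 without 14HP33.

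Of FOXP3, IKZF2 and IKZF4, the Treg genes counted in every better covered library, IKZF4 varied most in CPM among those libraries. In Cohort B it had 43 counts in 13EP12, 81 in 13EP8 and 0 in the other 3 libraries. In Cohort C it had 133 counts in 15CP1, 16 in 14HP24, 8 in 13EP5, 2 in 14HP33 and 0 in 15CP4. The levels were 36.1 and 58.2 CPM in 13EP12 and 13EP8, 22.6 CPM in 15CP1 and 2.39 CPM in 13EP5, so that both Cohort B libraries lay above both Cohort C libraries at this coverage. Over all libraries the cohorts overlapped, since 14HP24 reached 117 CPM from its 16 counts, where 2.42 were expected. The 24.3-fold range of IKZF4 among the better covered libraries was matched or exceeded by 129 of the 6133 genes (2.10%). Monkey 13EP5, the better covered library with the least IKZF4, had the most FOXP3 counts. In CPM, however, its FOXP3 (43.1) lay below that of 13EP12 (46.2), where IKZF4 was at 36.1 CPM. The log2 fold change by edgeR was 0.50 (SE 2.07, adjusted p = 0.9998). It was -1.92 in the better covered libraries and -0.56 without 14HP24, so that no direction can be given.

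The surface genes gave few counts. IL2RA had 4 counts in 13EP12 and 14 in 15CP6 of Cohort B and 0 in 13EP8, 14HP26 and 14HP31. In Cohort C it had 53 counts in 13EP5, 70 in 15CP1 and 0 in 14HP33, 14HP24 and 15CP4. The levels were 3.36 and 30.7 CPM in Cohort B and 15.9 and 11.9 CPM in Cohort C, and the highest was that of 15CP6, the library in which neither FOXP3, IKZF2 nor IKZF4 was counted. Its 14 counts stood against 3.84 expected at the pooled level. The cohorts overlapped, with means of 1.43 ± 2.2 and 1.62 ± 2.22 on the log2(CPM + 1) scale (SD, n = 5). The log2 fold change of IL2RA by edgeR was -0.14 (SE 1.99, adjusted p = 0.9998), and it turned to 2.39 without 15CP6 and to 3.01 in the better covered libraries.

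TNFRSF18 was counted in 2 libraries only, both of Cohort C and both the deepest of the series, with 8 counts in 13EP5 and 9 in 15CP1. All 5 Cohort B libraries and the other 3 of Cohort C were at 0. The levels were 2.39 and 1.53 CPM. The summed Cohort C level was 1.63 CPM, 1.72-fold the floor of 3 counts over the summed Cohort B libraries (0.95 CPM). These sums pool the monkeys of a cohort and give no bound on a cohort difference. Only 5.16 counts would have been expected in all of Cohort B at the Cohort C level. The same pattern, a count in 13EP5 and in 15CP1 and in no other library, was shown by 1227 of the 26484 genes (4.63%). By edgeR's quasi-likelihood test the log2 fold change was 3.70 (SE 1.76, unadjusted p = 0.0352, adjusted p = 0.201); with one cohort at 0 this fitted value depends on the prior count and is no bound, and DESeq2 gave 0.17.

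LRRC32 had 0 counts in all 10 libraries. The floor of 3 counts equals 0.509 CPM in 15CP1 and 0.221 CPM over the 13567631 counts of all libraries, which bounds its level at this depth. A row without any count was common, with 9159 of the 26484 genes (34.6%). The reads were mapped to the human genome, and how much a gene lost by divergence between macaque and human was not tested. Platelets express LRRC32, and 13EP5 held 975 counts of 8 platelet markers, among them PPBP with 285, ITGA2B with 166 and TUBB1 with 398, against 0 to 26 in Cohort B and 0 to 48 in the other Cohort C libraries, with GP9 at 0 in every library. LRRC32 was at 0 in 13EP5 as well.

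The comparison of the cohorts called none of the Treg genes. Of the 14168 genes tested by edgeR's quasi-likelihood test, 911 (6.43%) passed an unadjusted p under 0.01 with at least 1.5-fold change, 152 higher in Cohort C (1.07%) and 759 lower (5.36%), and 0 passed an adjusted p under 0.05 (0.0%), where DESeq2 called 2, neither of them a Treg gene. Of the 5 Treg genes tested, 0 passed either rule, and 1, TNFRSF18, had an unadjusted p under 0.05, where 20.6% of all genes did. The log2 fold changes ran from -0.14 for IL2RA to 3.70 for TNFRSF18, which passed the filter on low counts through Cohort C alone, so that its sign was given beforehand. In the exact permutation test of log2(CPM + 1) over every assignment of the 10 libraries to 5 and 5 (two-sided, 5 genes, smallest possible p = 0.00794), the differences were 0.23 for FOXP3 (p = 1), 1.97 for IKZF2 (p = 0.381), 1.37 for IKZF4 (p = 0.397), 0.19 for IL2RA (p = 1) and 0.66 for TNFRSF18 (p = 0.444). The difference of IKZF4 depended on scaling. In 14HP33 its 2 counts, under the floor of 3, became 28.5 CPM through a TMM factor of 0.0725. With library size only, the exact permutation test gave 0.74 for IKZF4 (p = 0.619). For FOXP3, IKZF2, IKZF4 and IL2RA the standard errors, back-calculated from edgeR's test statistic, were 3.97-fold to 4.21-fold. Differences of several fold in either direction were within that error.

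**Figure D3:**
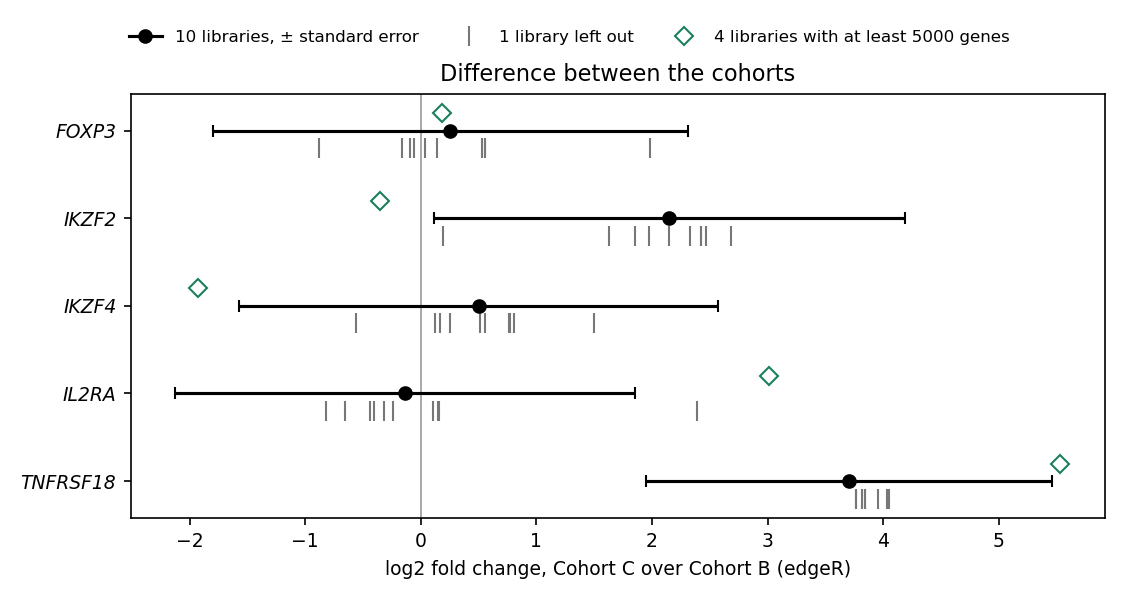
Log2 fold change of Cohort C over Cohort B by edgeR for the 5 Treg genes tested. Black circles show all 10 libraries, with bars of ± standard error back-calculated from the test statistic. The bar of TNFRSF18, at 0 throughout Cohort B, is no measure of error. Grey ticks show each library left out in turn, and green diamonds the 4 better covered libraries. FOXP3, IKZF4 and IL2RA moved to both sides of 0, IKZF2 stayed above 0 until only the better covered libraries were used (-0.36), and TNFRSF18 could not be fitted without 13EP5 or without 15CP1, which hold all of its counts.

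The deposited FPKM values, which are scaled to gene length and were used here to set genes side by side within a library, placed FOXP3, IKZF2 and IKZF4 at ranks that differed from library to library and IL2RA low where it was listed. FOXP3 was listed at 8.18 FPKM in 13EP12, 0 in 13EP8, 170 in 13EP5 and 6.51 in 15CP1. These exceeded 38.6%, 71.9% and 52.1% of the genes listed above 0 in 13EP12, 13EP5 and 15CP1. IKZF2 was listed at 3.77, 18.6, 71.8 and 8.24 FPKM in 13EP12, 13EP8, 13EP5 and 15CP1, and at 2.47 in 14HP26 and 579 in 15CP4. In the better covered libraries it exceeded 25.7%, 59.4%, 51.6% and 57.3% of the listed genes. IKZF4 was listed at 8.93, 11.1, 4.97 and 5.10 FPKM in the better covered libraries in the same order, at 8.57 in 14HP24 and at 0.370 in 14HP33. It exceeded 40.4%, 47.2% and 46.9% of the listed genes in 13EP12, 13EP8 and 15CP1 but 9.60% in 13EP5, close to the 9.28% of IL2RA there. IL2RA was listed at 0.812 FPKM in 13EP12, 0 in 13EP8, 4.73 in 13EP5, 1.13 in 15CP1 and 3.79 in 15CP6, above 6.66% to 20.6% of the listed genes where it was listed above 0 in a better covered library. TNFRSF18 and LRRC32 were listed at 0 throughout.

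The order of the Treg factors by FPKM was not the same in the better covered libraries. FOXP3 lay above IKZF2 in 13EP12 and 13EP5 and below it in 15CP1 and in 13EP8, where it was listed at 0. IKZF4 was highest of the 3 in 13EP12 and lowest in 13EP5 and 15CP1. The level of FOXP3 relative to CD4 also differed on this scale, with ratios of FPKM of 0.113 in 13EP12, 0 in 13EP8 (0 against 7.06 FPKM), 0.568 in 13EP5 and 0.358 in 15CP1, unlike the even ratio in counts. Limma on log2(FPKM + 1) gave log2 fold changes of 1.43 for FOXP3 (SE 1.51), 2.05 for IKZF2 (SE 1.72), 0.40 for IKZF4 (SE 1.26) and 0.10 for IL2RA (SE 1.11), with adjusted p of 0.992 to 0.994, while the median over the 10307 genes tested was 0.74 and 0 of them passed (0.0%), with 29 at an unadjusted p under 0.05.

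The FPKM values and the counts of the Treg genes did not run in parallel. Of the 23 values with a count, 4 were listed at 0 FPKM, with up to 15 counts (FOXP3 in 13EP8). FOXP3 in 13EP5 over 15CP1 was 1.85-fold in CPM and 26.1-fold in FPKM. The FPKM of all genes summed to 10365236 in 13EP5 and to 5174908 in 15CP1, so that the scale differs between libraries and enters the limma values above.

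**Figure D4:**
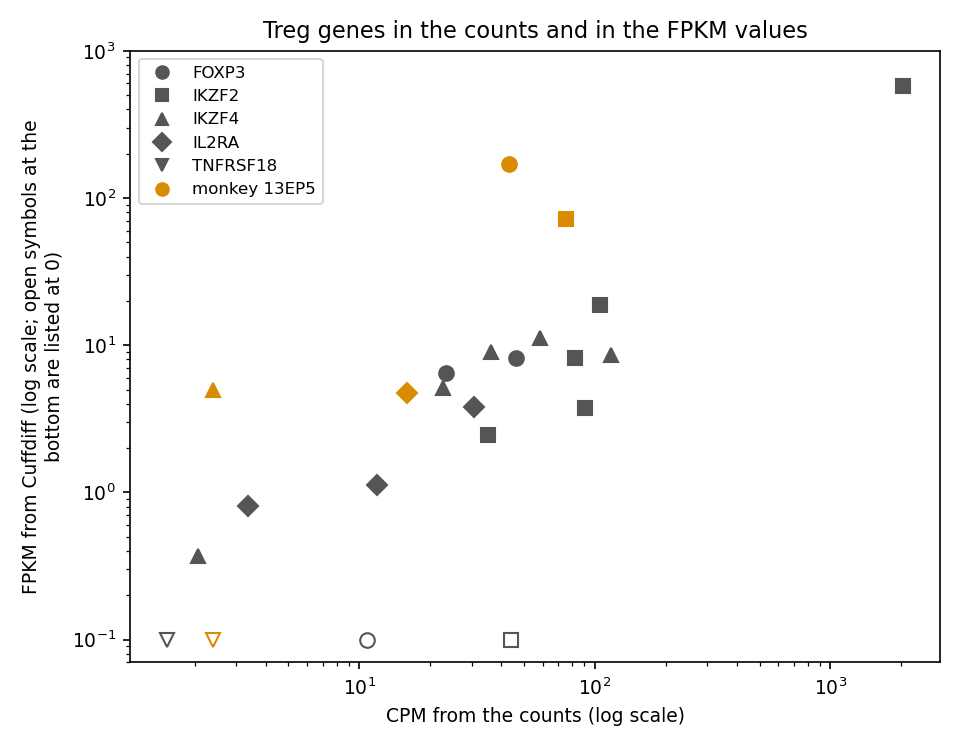
FPKM against CPM (both log scales) for the 23 values of the Treg genes with a count, with a symbol for each gene, orange for 13EP5 and open symbols at the bottom for values listed at 0 FPKM. FOXP3 in 13EP5 lies at 43.1 CPM and 170 FPKM, and 4 values with a count are listed at 0 FPKM.

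Most of the genes around FOXP3 were read in more libraries than FOXP3 itself, and the list gave no call. CBFB was counted in the same libraries as FOXP3. FOXP4 was counted only in 13EP12, 13EP5 and 15CP1, with 20, 50 and 32 counts. Among 14 partners and regulators of FOXP3, all were tested, 6 had a positive and 8 a negative log2 fold change, 0 were called, and the median was -0.09. Of all 14168 genes tested, 7586 (53.5%) had a positive log2 fold change, and the directions in this and the following lists stand beside that share. FOXP1, a relative of FOXP3, had 1220 counts in 13EP12, 577 in 13EP8, 1895 in 13EP5 and 3441 in 15CP1, and SATB1, a chromatin organizer of T cells, had 618, 1046, 1998 and 4024. NFATC2, which binds DNA together with FOXP3, had 362, 475, 1065 and 1717, and RUNX1, another partner, 276, 173, 748 and 874. In 15CP6, where FOXP3 was at 0, 7 of the 14 genes were counted, with 231 counts of SATB1, 129 of FOXP1 and 88 of NFATC2. In 14HP24, also without FOXP3, 10 of the 14 were counted with 183 counts in all, and 14HP26, 14HP33 and 14HP31 held 110, 29 and 9 counts of the list. GATA3 had 16 and 54 counts in Cohort B and 382 and 440 in the 2 better covered Cohort C libraries, with 21 in 14HP24, and its log2 fold change was 2.44 (SE 2.17, edgeR's adjusted p = 0.746).

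Ikaros (IKZF1), the founding member of the family of IKZF2 and IKZF4, was the family member with the highest FPKM in each of the better covered libraries. IKZF1 was listed at 98.6 FPKM in 13EP12, 48.0 in 13EP8, 308 in 13EP5 and 64.3 in 15CP1, which is 26.2, 2.58, 4.29 and 7.81 times the FPKM of IKZF2. In counts the ratio of IKZF1 to IKZF2 was more even, at 4.41, 3.73, 5.53 and 5.82. Aiolos (IKZF3) was listed at 7.69, 16.1, 152 and 23.5 FPKM and IKZF5 (Pegasus) at 26.7, 4.40, 132 and 22.7. In the smaller libraries the order of the counts could differ, with 135 of IKZF2 and 0 of IKZF1 in 15CP4 and 16 of IKZF4 and 7 of IKZF1 in 14HP24. All 3 of these family members had positive log2 fold changes, as did 53.5% of all genes tested. Their median was 0.04, against 0.16 over all genes tested, and 0 were called.

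The other chains of the IL-2 receptor were read well above IL2RA. IL2RG, the chain shared with other cytokine receptors, was listed at 194, 111, 1385 and 203 FPKM in 13EP12, 13EP8, 13EP5 and 15CP1, and IL2RB at 10.2, 5.45, 93.0 and 9.91. IL7R (CD127), which is high on conventional and memory T cells and low on Tregs, was listed at 128, 98.7, 758 and 131 FPKM. The ratio of IL7R to IL2RA was 158 in 13EP12, 160 in 13EP5 and 116 in 15CP1 on this scale, and IL2RA was listed at 0 in 13EP8. In counts the ratio was less even, at 178, 32.3 and 54.6, and 13EP8 had 865 counts of IL7R and 0 of IL2RA. IL7R had 105 counts in 15CP6, where IL2RA was highest in CPM. IL2 itself was at 0 in all libraries. Of 8 genes of the pathway 7 were tested, 1 had a positive and 6 a negative log2 fold change, 0 were called, and the median was -0.42. Over all genes tested, 53.5% were positive and the median was 0.16.

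Around GITR, its ligand TNFSF18 was at 0 in all libraries. The adaptors TRAF1 and TRAF5 had 197 and 241 counts in 13EP5 and 187 and 230 in 15CP1, and in Cohort B they had 7 and 9 in 13EP12 and 82 and 183 in 13EP8. These counts are not scaled to library size, and 13EP5 and 15CP1 were the deepest libraries. The log2 fold change by edgeR was 0.82 for TRAF1 (SE 2.07) and -0.28 for TRAF5 (SE 2.05), with adjusted p = 0.9998 for both. SIVA1, which binds the cytoplasmic tail of the GITR protein, was counted, like TNFRSF18, in 13EP5 and 15CP1 alone, with 8 and 14 counts. Of 5 genes 4 were tested, 2 with positive and 2 with negative log2 fold changes, and 0 were called.

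The genes that act with GARP were counted although LRRC32 was not. TGFB1, whose latent product GARP holds, had 1101, 802, 2808 and 3705 counts and was listed at 383, 287, 2677 and 327 FPKM in 13EP12, 13EP8, 13EP5 and 15CP1, above 95.8% to 97.6% of the listed genes. HSP90B1, the chaperone that GARP needs to reach the surface, had 493, 781, 4843 and 2025 counts. NRROS, a relative of LRRC32 that holds latent TGF-beta in myeloid cells, had 91, 82, 102 and 129 counts, with 21 in 15CP6. Of 12 genes 6 had positive and 6 negative log2 fold changes with a median of 0.03, and 1, ITGB8, was called, lower in Cohort C, with a fitted log2 fold change of -7.39 (SE 2.68, edgeR's adjusted p = 0.141). That call rests on 7 counts in 13EP12 and 14 in 14HP26, and 5.36% of all genes tested were called lower.

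Other genes that Tregs carry were also read. CTLA4, an inhibitory receptor, had 35, 139, 228 and 669 counts in 13EP12, 13EP8, 13EP5 and 15CP1 and 22 in 15CP6, and was listed at 8.68, 66.7, 215 and 51.2 FPKM, above IL2RA in each of these libraries. ICOS, a costimulatory receptor, had 103, 62, 585 and 515 counts. CCR4, a skin-homing chemokine receptor, had 57, 51, 147 and 237 counts, with 67 in 15CP6 and 17 in 14HP24. Of 16 such genes 12 were tested, 6 in each direction with a median of -0.10, and 1 was called, LAYN, lower in Cohort C from 14 counts in 14HP26 alone (edgeR's adjusted p = 0.141), again beside 5.36% of all genes. EBI3, a chain of IL-35, was at 0 in all libraries.

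The genes of the sort gate were themselves sparse. CD4 had 338, 94 and 13 counts in 13EP12, 13EP8 and 15CP6, 772, 766 and 19 in 13EP5, 15CP1 and 14HP24, and 0 in 14HP26, 14HP31, 14HP33 and 15CP4. ITGA2, which encodes CD49b, had 25 and 2 counts in 13EP12 and 13EP8, 4 in 13EP5 and 37 in 15CP1, and 0 elsewhere. LAG3 had 10 counts in 13EP12, 16 in 13EP5 and 12 in 15CP1, and 0 elsewhere. In FPKM, FOXP3 lay above ITGA2 in 13EP12 (8.18 against 0), 13EP5 (170 against 1.74) and 15CP1 (6.51 against 0.455), and below it in 13EP8 (0 against 0.312). In counts, which are not scaled to gene length, FOXP3 lay above ITGA2 in 13EP8 as well (15 against 2). The ITGA2 value of 0 FPKM in 13EP12 stood beside 25 counts, so that the order in FPKM is not firm in these 2 libraries. The labelled cell type could be checked on CD4, ITGA2 and LAG3 together only in 13EP12, 13EP5 and 15CP1, and T cell markers were at 0 for all 10 genes in 14HP31.

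Markers of other cells were present beside the Treg genes. The 8 monocyte markers summed to 1264, 1117, 163 and 1118 CPM in 13EP12, 13EP8, 13EP5 and 15CP1, against 1704, 1324, 1494 and 1525 CPM for the 10 T cell markers. VCAN alone gave 1104 of the 1505 monocyte marker counts in 13EP12, 1084 of 1555 in 13EP8, 184 of 546 in 13EP5 and 4416 of 6589 in 15CP1. Outside 13EP5 the monocyte sums thus rested mostly on a single gene. Summed CD8 and NK cell markers ranged from 37.7 to 259 CPM and B cell markers from 31.1 to 73.3 CPM in these libraries. The part of these cells in the Treg genes was not tested.

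The genes whose profile over the 10 libraries was closest to that of each Treg gene were found by the mean absolute difference of log2(CPM + 1), centred on each gene's own mean, among 9685 genes. The closest to FOXP3 were MX1 (0.080) and RBM34 (0.083), both at 0 in the same 6 libraries. MX1 had 57, 13, 186 and 122 counts in 13EP12, 13EP8, 13EP5 and 15CP1, beside 55, 15, 144 and 137 of FOXP3. The closest to IL2RA were ARFRP1 (0.142) and SLC39A11 (0.239), also with 6 zeros shared, to IKZF4 POC1B (0.485) and SNORD94 (0.598), and to IKZF2 RQCD1 (0.640) and SS18 (0.720). SS18 had 135 counts in 15CP4, the number that IKZF2 had there. The likeness rests largely on which libraries were at 0. The 4 better covered libraries alone held counts of 2004 of the 26484 genes (7.57%), in each of the 4 and in no other library, and FOXP3 was one of these.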

How the data were processed

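RNA of 10 Tr1 libraries, 1 per monkey and 5 per cohort, was analysed. Groups were taken from the sample titles. Per the submitters' processing notes, reads were mapped to the human genome hg38 with HISAT2 2.0.2. The authors deposited raw counts per gene (26484 rows) and FPKM values per gene made with Cuffdiff 2.2.1 (26381 rows). The counting options, including strand, were not given in the sources used here. The 6 genes matched macaque RefSeq symbols, all protein coding. The 2 symbols on more than 1 row, both in date form, were kept in library totals and are not reported. No other sample columns were present (0), and no sequence was used.

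Counts were tested with edgeR 4.0.16 (TMM, quasi-likelihood test; R 4.3.3) on the 14168 genes with at least 10 counts over all libraries, and FPKM values with limma 3.58.1 on log2(FPKM + 1) for the 10307 genes with a mean of at least 1. Called genes had an unadjusted p under 0.01 and at least 1.5-fold change (counts), or an adjusted p under 0.05 and over 1.4-fold (FPKM). The SE printed with edgeR's log2 fold changes is the absolute log2 fold change divided by the square root of the F statistic. For TNFRSF18 and ITGB8, each at 0 throughout one cohort, it is no measure of error. CPM is given per library size, and log2(CPM + 1) with TMM factors. These factors ran from 0.0725 in 14HP33 to 4.23 in 14HP31. Exact tests and binomial intervals (95%) used scipy 1.17.1 (Python 3.11.15). Expected counts were the pooled level of the 4 libraries with at least 5000 genes times the counts of a library, without MTRNR2L genes. Total counts per library, given with the results, set the precision. No molecular identifiers are named in the sources used here. The 10 libraries are of separate monkeys, but library preparation cannot be told apart from the monkey.

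In simulated data, 200 genes changed by 8-fold: 197 were recovered at a dispersion of 0.1 (13866 genes tested, 14 false calls) and 0 at 4.74, the common dispersion of these libraries (12414 tested). Named were the 6 genes, the genes of the gate, genes of the pathway lists with over 3 counts in at least 4 libraries or called, the 2 closest profiles per gene, and cell markers as sums. SIVA1, CD2, CD3G, CD5, LCK, VCAN and the genes at 0 throughout were named after their values were seen. The 6 genes and the lists were chosen with earlier results of these data known. Alternatives were edgeR's exact test, DESeq2 1.42.0, other scalings and filters, the replicate number as a block, the index suffix of the labels as a covariate, and libraries left out. Samples with the same replicate number correlated at 0.38, -0.29, 0.02, -0.43 and -0.04, and are different monkeys, so that the numbers do not pair them.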

Additional observations from a re-analysis of the deposited data

Results flagged for a closer look

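Among 17 groups of 5 libraries examined for a value far from the others (each Treg gene and the genes CD4, CD3E, ITGA2 and LAG3 per cohort, where they varied), 2 held one. A chance rate of about 1 in 20 was taken as a setting. It was not worked out for groups with many zeros, and no conclusion is drawn from it. LAG3 in Cohort B was 3.27 on the log2(CPM + 1) scale in monkey 13EP12, from 10 counts, and 0 in the other 4 libraries. CD3E in Cohort C was 0.0 on that scale in monkey 15CP4 and above 0 in the other 4 libraries. Library 15CP4 is the one with 135 counts of IKZF2. None of the Treg genes had such a value.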

How the results depend on the processing

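Of 209 values of the Treg genes under alternatives, 179 kept their direction, 30 turned and 0 passed a threshold. The number of genes called by edgeR (911) was 341 with its exact test, 69 with DESeq2, 1525 with RLE factors, 10 with filterByExpr, which kept IKZF2 alone of the Treg genes, 98 with the index suffix as a covariate and 117 in the 4 better covered libraries. Leaving out 1 library gave 76 without 13EP5, 143 without 15CP1 and 515 to 695 without any other. Limma called 0 under every alternative. FOXP3 turned to -0.24 with DESeq2 and -0.0096 with RLE, IKZF2 to -0.36 and IKZF4 to -1.92 in the better covered libraries, and IL2RA to 0.89 with the index suffix and 3.01 in the better covered libraries. The cause was not tested. Scaling moved the median of all genes from 0.16 to -0.03 (RLE), -0.11 (library size) and -0.31 (DESeq2), and relative to it FOXP3 stayed positive (0.02 to 0.15). Leaving out 1 library gave -0.88 to 1.98 for FOXP3, 0.19 to 2.68 for IKZF2, -0.56 to 1.501 for IKZF4, -0.82 to 2.39 for IL2RA and 3.76 to 4.05 for TNFRSF18, which could not be fitted without 13EP5 or 15CP1. On FPKM, IL2RA ranged from -0.0575 to 0.28, and in the permutation test FOXP3 from -0.63 to 1.17 and IL2RA from -0.44 to 1.077.

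With the replicate number as a block, edgeR called 0 genes (9 at an unadjusted p under 0.05; the quasi-likelihood test without the block, 2923), FOXP3 was -0.0695 and IL2RA 0.39. The numbers mark different monkeys, and the samples that share one deviated together for replicate 1 (correlation 0.38) but not for the other 4 numbers (-0.43 to 0.02).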
